A study of Homo sapiens with 6 samples.

Results

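The integrated stress response genes described here are ATF4 and 9 genes that ATF4 signalling is known to act on: DDIT3, CEBPB, TRIB3, PPP1R15A, CHAC1, ASNS, PSAT1, PHGDH and DDIT4. They were taken by gene symbol from a table of 19475 symbols, and all 10 were found and passed the filter on low counts, as did 13794 genes in all. RNA sequencing was done on MH7A cells, an immortalised synovial fibroblast line from rheumatoid arthritis. One group received TNFα at 10 ng/ml together with red light from a 630 nm LED, applied for 15 min, 3 times (TNF + LED, replicates 4, 6 and 10). The other received TNFα at 10 ng/ml alone (TNF, replicates 2, 8 and 14). Every library therefore came from TNFα-treated cells of 1 line, and no library without TNFα, with light alone or with sham exposure is analysed here. The labels do not say that the libraries came from separate cultures, so p-values measure the spread between these libraries, which may be technical.

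The integrated stress response is a translation switch shared by several kinds of cell stress. The kinases PERK, GCN2, PKR and HRI phosphorylate the initiation factor eIF2α, which lowers protein synthesis in general and raises translation of the mRNA of ATF4. ATF4 is a basic leucine zipper transcription factor that raises genes for amino acid uptake and synthesis, for further transcription factors such as CHOP (the product of DDIT3), and for feedback inhibitors. Through PERK it is also one of the arms of the unfolded protein response of secretory cells, fibroblasts among them. Because ATF4 is controlled largely in translation, its mRNA level is no measure of its protein. In bulk RNA, fewer cells with a transcript and less transcript per cell cannot be told apart.

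Deposited totals lay between 94615430 and 108074289 estimated counts in the TNF + LED libraries and between 86000253 and 107139947 in the TNF libraries, and about 4 units stood for 1 sequenced fragment. Levels are given as CPM, the count scaled to a common library total. Of 11 synovial fibroblast markers, 10 averaged at least 1 CPM and PRG4 did not, with summed levels of 25842 to 27472 CPM in TNF + LED and 30388 to 32370 CPM in TNF libraries. The macrophage list had 2 of 6 markers at that level (CD68 and CSF1R, AIF1 at 0), summing to 115 to 156 CPM in TNF + LED and 93.4 to 139 CPM in TNF. Endothelial markers reached it for 3 of 5 (VWF, KDR and TEK, CDH5 at 0), summing to 67.3 to 83.6 CPM in TNF + LED and 81.6 to 118 CPM in TNF. No marker of the leukocyte list (0 of 6; CD3E, CD3D and MS4A1 at 0) or of the epithelial list (0 of 5; KRT5 at 0) reached 1 CPM, with sums of 0.0519 to 0.689 and 0.349 to 0.557 CPM in TNF + LED, against 0 to 0.277 and 0.285 to 0.369 CPM in TNF. MRC1 of the macrophage list was the 1 marker called different between the groups, below 1 CPM in each library. The part of these other markers in the results was not tested. Within each group 1 library stood apart. Chi-square per degree of freedom was 77.0 and 115 for pairs with TNF + LED replicate 6, against 27.9 between replicates 4 and 10, and 136 and 101 for pairs with TNF replicate 8, against 28.0 between replicates 2 and 14. Results that rest on these libraries are given with and without them.

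None of the 10 genes differed between TNF + LED and TNF cells past the threshold used here, an adjusted p below 0.05 in edgeR's quasi-likelihood test over all 13794 genes (a gene past it is called higher or lower). The share called among all genes was 5.17%, so 0 of 10 is not set apart from the background. At an unadjusted p below 0.05 there were 2 of the 10, CHAC1 on the lower and DDIT3 on the higher side, beside 22.7% of all genes. DESeq2 called 1 of the 10, CHAC1, lower, beside 6.37% of all genes, and 0 higher, beside 6.34%. Limma-voom called 0 of the 10, beside 4.78% of all genes called in either direction. An adjusted p below 0.1 in edgeR was reached by the same 2 genes, CHAC1 and DDIT3, and by 10.7% of all genes. The log2 fold change was above 0 for 9 of the 10 and for 50.8% of all genes, and its median was 0.51 for the 10 and 0.0086 for all genes. What stood out in the values was 1 library: TNF + LED replicate 6 held the highest level of 7 of the 10 genes, where 25.2% of all genes were highest in it.

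**Figure D1:**
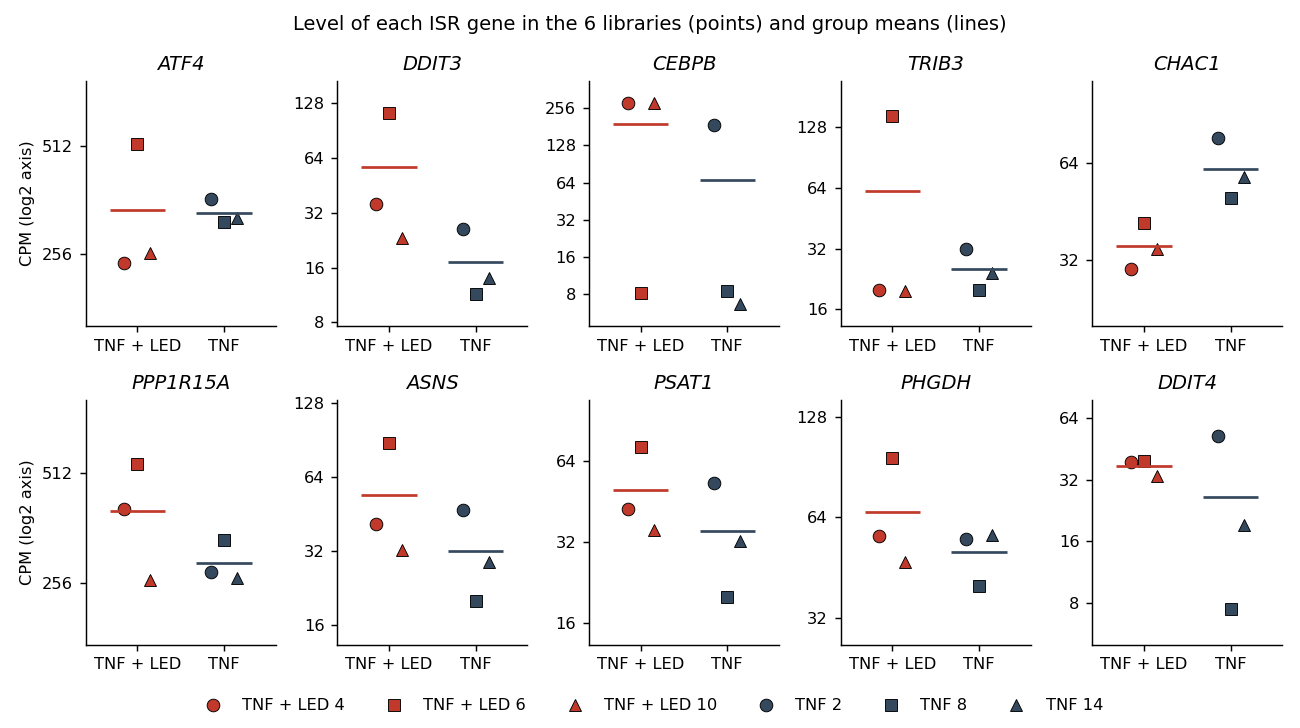
Level of each of the 10 integrated stress response genes in each library, in CPM on a log2 axis, with TNF + LED libraries left of TNF libraries in each panel, a symbol for each replicate and a line at each group's arithmetic mean (n = 3). CHAC1 is the 1 gene whose groups do not overlap, TNF + LED replicate 6 is the highest point for 7 genes, and CEBPB splits into 3 libraries at 186 CPM or more and 3 below 10 CPM.

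ATF4, the central transcription factor, was at 242, 516 and 257 CPM in TNF + LED replicates 4, 6 and 10, against 364, 314 and 321 CPM in TNF replicates 2, 8 and 14. Replicate 6 lay above every TNF library and the other two TNF + LED libraries lay below every one. The means were 338 ± 154 CPM in TNF + LED and 333 ± 26.9 CPM in TNF (SD, n = 3 each), and the log2 fold change was 0.022 ± 0.28 (SE, adjusted p = 0.974 in edgeR). Without TNF + LED replicate 6 it was -0.42 (adjusted p = 0.238), and without both that library and TNF replicate 8 it was -0.45 and called lower (adjusted p = 0.0340), under a setting that called 6.54% of all genes lower. The sign of the ATF4 difference thus depended on which libraries were kept.

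DDIT3 encodes CHOP, a transcription factor of prolonged stress that is linked to cell death. Its levels were 35.8, 113 and 23.4 CPM in TNF + LED cells, against 25.9, 11.4 and 13.9 CPM in TNF cells. Replicates 4 and 6 exceeded every TNF library, while replicate 10 lay below TNF replicate 2, so the groups overlapped. Means of 57.5 ± 48.7 CPM in TNF + LED and 17.1 ± 7.75 CPM in TNF gave a log2 fold change of 1.75 ± 0.55, which missed the threshold (adjusted p = 0.0998 in edgeR). Leaving out replicate 6 brought it to 0.79 (adjusted p = 0.346). In the annotation DDIT3 lies opposite MARS, a tRNA synthetase gene, and MBD6, and AC022506.1 and MIR616 overlap it on its own strand. No source used here says whether the counting used strand or how fragments in overlaps were assigned. MARS was at 122, 167 and 119 CPM in TNF + LED and at 143, 139 and 132 CPM in TNF libraries.

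CEBPB, a basic leucine zipper factor that pairs with ATF4 and CHOP and also drives inflammatory genes, gave the widest values of the 10. It stood at 282, 8.18 and 281 CPM in TNF + LED and at 186, 8.45 and 6.67 CPM in TNF libraries. High and low libraries occurred in both groups with nothing in between: replicates 4 and 10 of TNF + LED and replicate 2 of TNF were high. The deposited values were 29835, 823 and 27125 in TNF + LED and 20774, 859 and 578 in TNF. In CPM the range was 34.4-fold within TNF + LED and 27.9-fold within TNF. Of 9625 genes that reached 10 CPM in some library, 5 (0.0519%) had a range of at least 10-fold within each group, and CEBPB was one of them. The others were LUZP6, HLA-F and the read-through entries ISY1-RAB43 and LOC400927-CSNK1E, named after their values were seen. CEBPB has a single exon and an antisense gene, CEBPB-AS1, overlaps it. Its log2 fold change of 1.503 ± 1.55 (adjusted p = 0.624 in edgeR; not assigned an adjusted p by DESeq2) is therefore a difference within the spread, and it lay between 0.97 and 4.65 with 1 library left out, the highest without TNF replicate 2. Among the 9 genes without CEBPB, the median log2 fold change was 0.50.

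TRIB3, a pseudokinase that restrains ATF4 and CHOP, was at 20.04, 145 and 19.8 CPM in TNF + LED libraries, against 31.9, 19.96 and 24.3 CPM in TNF libraries. A single library, replicate 6, was far above the rest, and replicates 4 and 10 were level with or below the lowest TNF library. The log2 fold change was 1.28 ± 0.70 (adjusted p = 0.322), from means of 61.7 ± 72.3 CPM in TNF + LED and 25.4 ± 6.07 CPM in TNF. It changed sign to -0.35 without replicate 6 (adjusted p = 0.493) and was -0.49 without both libraries that stood apart (adjusted p = 0.0764).

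PPP1R15A encodes GADD34, which brings protein phosphatase 1 to eIF2α and so ends the translational block. Its levels were 408, 544 and 261 CPM in TNF + LED cells, against 275, 336 and 265 CPM in TNF cells. Replicates 4 and 6 lay above and replicate 10 just below all TNF libraries. The means were 404 ± 141 CPM in TNF + LED and 292 ± 38.3 CPM in TNF, with a log2 fold change of 0.47 ± 0.26 (adjusted p = 0.320). It was 0.20 without replicate 6 (adjusted p = 0.703), 0.70 without replicate 10 (adjusted p = 0.127) and 0.31 without both libraries that stood apart (adjusted p = 0.427).

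CHAC1 encodes an enzyme that breaks down glutathione and is a known target of ATF4. It was the 1 gene of the 10 whose groups did not overlap, on the lower side, where 16.2% of all genes had groups that did not overlap. TNF + LED libraries had 30.0, 41.8 and 34.6 CPM, and TNF libraries had 76.8, 49.98 and 57.8 CPM. Every TNF + LED library was below every TNF library, replicate 6 included. The means were 35.5 ± 5.93 CPM in TNF + LED and 61.5 ± 13.8 CPM in TNF, a log2 fold change of -0.79 ± 0.21 (adjusted p = 0.0637 in edgeR, above the threshold). DESeq2 gave -0.78 with an adjusted p of 0.0111. CHAC1 was also called lower by edgeR without TNF replicate 8 (-0.92, adjusted p = 0.0492, beside 2.12% of all genes called lower) and without both libraries that stood apart (-1.06, adjusted p = 0.0129). Over all 16 alternative settings its log2 fold change stayed between -1.06 and -0.62, and the adjusted p ranged from 0.0111 to 0.238.

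The promoter of CHAC1 is shown because the gene's log2 fold change had the opposite sign to the other 9 and its window holds a match to the core of the C/EBP-ATF element that ATF4 binds, searched as TGATGNAA on both strands. The window runs from 250 bases before to 50 bases after the start (RefSeq, GRCh38.p14, chr15:40953221-40953520, plus strand), and the match, in capitals, is on the reverse strand with its first base 209 bases before the start.
CHAC1: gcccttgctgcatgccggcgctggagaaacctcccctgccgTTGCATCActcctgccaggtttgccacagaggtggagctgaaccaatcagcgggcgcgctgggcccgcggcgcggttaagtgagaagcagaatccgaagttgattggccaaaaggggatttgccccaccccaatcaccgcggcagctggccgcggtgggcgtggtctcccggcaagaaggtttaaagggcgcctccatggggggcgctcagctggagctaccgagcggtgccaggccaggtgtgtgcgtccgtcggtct

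Such a match was found in windows of 2 of the 10 genes, CHAC1 and ASNS, and in those of 4.46% of the 27305 genes in the RefSeq table (3.62% of 35116 windows). The ASNS window is shown beside it because the log2 fold change of ASNS was above 0 (chr7:97872359-97872658, minus strand). Its match, in capitals, begins 68 bases before the start and overlaps a match to the heat shock element core, searched as GAANNTTC, which occurred for 1 of the 10 genes and for 8.21% of all genes.
ASNS: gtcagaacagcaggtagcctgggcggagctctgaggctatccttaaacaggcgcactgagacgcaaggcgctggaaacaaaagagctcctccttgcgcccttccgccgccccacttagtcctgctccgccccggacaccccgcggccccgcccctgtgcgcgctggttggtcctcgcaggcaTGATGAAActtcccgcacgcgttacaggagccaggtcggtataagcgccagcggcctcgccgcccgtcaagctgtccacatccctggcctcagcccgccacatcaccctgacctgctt

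These matches describe letters in the windows, and no binding was measured.

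The 3 biosynthetic enzymes of the set had overlapping groups and shared the order of the TNF + LED libraries, replicate 6 above 4 above 10. ASNS, asparagine synthetase, was at 41.2, 88.5 and 32.2 CPM in TNF + LED, against 47.2, 20.03 and 28.96 CPM in TNF libraries. In the annotation AC079781.5 overlaps ASNS on the same strand and AC005326.1 on the other, with the same limit on counting as for DDIT3. PSAT1, which makes phosphoserine in the serine pathway, had 42.3, 72.3 and 35.5 CPM in TNF + LED, against 52.9, 19.9 and 32.3 CPM in TNF libraries. PHGDH, the first enzyme of that pathway, had 56.4, 96.0 and 47.0 CPM in TNF + LED, against 55.0, 40.0 and 56.5 CPM in TNF libraries. For all 3 genes replicate 6 was above every TNF library, TNF replicate 8 was the lowest of the 6, and replicates 4 and 10 lay within the TNF range. Log2 fold changes were 0.75 ± 0.41 for ASNS (adjusted p = 0.313), 0.52 ± 0.37 for PSAT1 (adjusted p = 0.450) and 0.40 ± 0.28 for PHGDH (adjusted p = 0.438). Without replicate 6 they were 0.196 for ASNS, 0.15 for PSAT1 and 0.033 for PHGDH. Without both libraries that stood apart they were -0.050 for ASNS, -0.13 for PSAT1 and -0.11 for PHGDH.

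DDIT4, also called REDD1, restrains the growth kinase complex mTORC1. TNF + LED libraries lay close together at 39.0, 39.8 and 33.5 CPM, against a wide 52.8, 7.51 and 19.2 CPM in TNF libraries. All TNF + LED values fell inside the TNF range, with TNF replicate 2 highest and TNF replicate 8 lowest of the 6. The means were 37.4 ± 3.44 CPM in TNF + LED and 26.5 ± 23.5 CPM in TNF, with a log2 fold change of 0.50 ± 0.54 (adjusted p = 0.636). The value moved to 1.47 without TNF replicate 2 (adjusted p = 0.05001, not below the threshold) and to 0.06 without TNF replicate 8. DDIT4-AS1 overlaps DDIT4 on the other strand, with the same limit on counting as for DDIT3.

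Per kilobase of annotated exons, levels in TNF + LED ran from 135 CPM per kb for ATF4 and 131 for PPP1R15A down to 12.1 for ASNS and 7.21 for PHGDH. In TNF they ran from 133 CPM per kb for ATF4 and 94.4 for PPP1R15A down to 7.20 for ASNS and 5.48 for PHGDH. The divisor was the combined length of the exons of all annotated transcripts, so a gene's place depends on its annotation too. It was 9217 bases over 34 transcripts for PHGDH and 4455 over 17 for ASNS, against 2514 over 3 for ATF4. Before this division PHGDH, at a mean of 66.4 CPM in TNF + LED, was above DDIT3 at 57.5 CPM. In TNF + LED each gene differed from its neighbour in the order by less than the larger SD of the pair. Without TNF + LED replicate 6 the order at both ends was another: CEBPB was highest at 144 CPM per kb, above PPP1R15A at 108 and ATF4 at 99.2, and TRIB3 at 5.81 and PHGDH at 5.61 were lowest. CHAC1 was below DDIT3 in TNF + LED, at 17.2 against 44.0 CPM per kb with all libraries and 15.7 against 22.6 without replicate 6, and above it in TNF, at 29.9 against 13.1 CPM per kb.

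**Figure D2:**
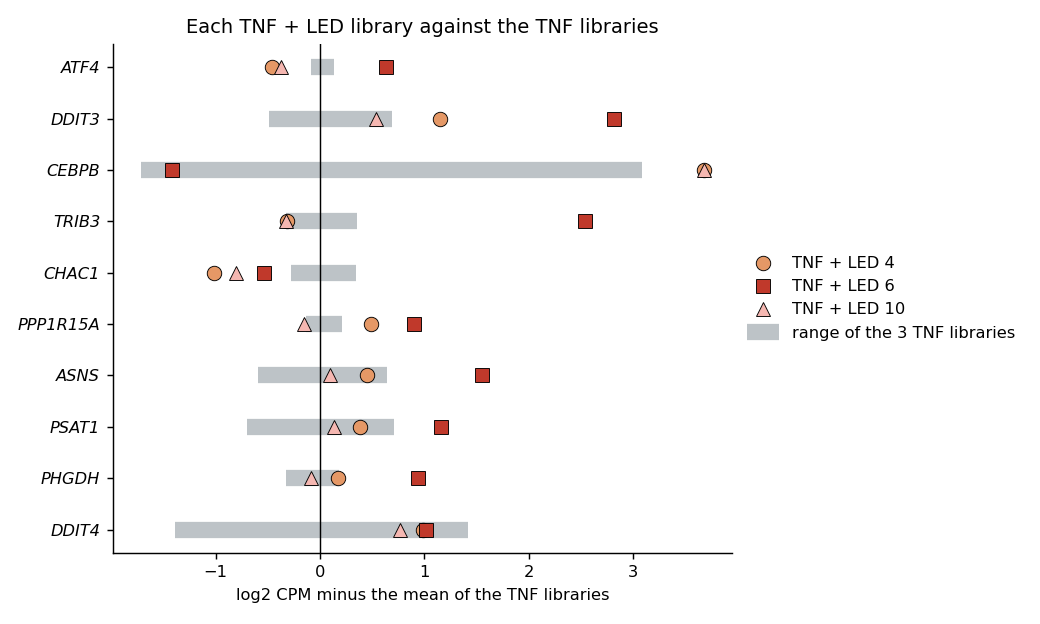
Log2 level of each of the 10 genes in each TNF + LED library relative to the mean log2 level of the 3 TNF libraries, with the range of the TNF libraries drawn for each gene. Replicate 6 lies above the TNF range for 7 genes, while CHAC1 lies below the range in all 3 TNF + LED libraries.

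The TNF + LED libraries differed among themselves. In replicate 6, 7 of the 10 genes were above all TNF libraries (ATF4, DDIT3, TRIB3, PPP1R15A, ASNS, PSAT1 and PHGDH) and CHAC1 was below them, where 33.66% of all genes were above and 31.8% below. In replicate 4, 3 genes were above (DDIT3, PPP1R15A and CEBPB) and 2 below (ATF4 and CHAC1), where 28.99% of all genes were above and 28.0% below. In replicate 10, 1 gene was above (CEBPB) and 4 below (ATF4, TRIB3, CHAC1 and PPP1R15A), where 29.13% of all genes were above and 28.01% below. Replicate 6 was at least 2-fold above the mean of replicates 4 and 10 for 4 of the 10 genes (ATF4, DDIT3, TRIB3 and ASNS) and for 4.18% of all genes. The median of that difference was 0.90 on the log2 scale for the 10 genes and -0.0042 for all genes. On the TNF side, replicate 8 was the lowest of the 6 libraries for 5 of the 10 genes and for 30.3% of all genes.

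**Figure D3:**
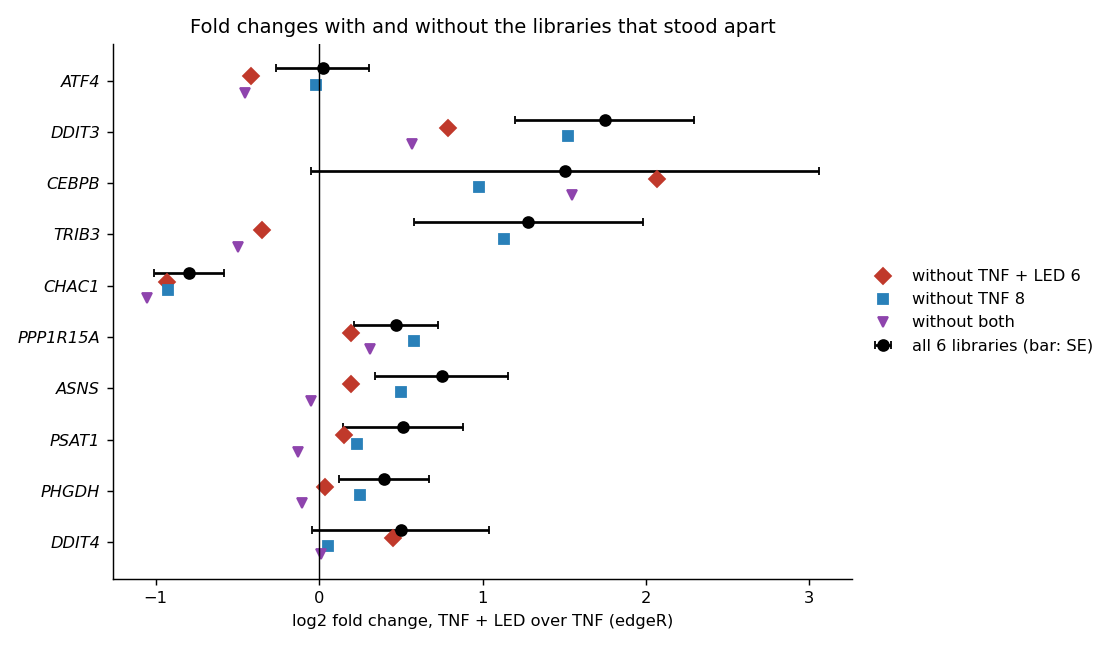
Log2 fold change (TNF + LED over TNF) of each of the 10 genes with all 6 libraries and with TNF + LED replicate 6, TNF replicate 8 or both left out, with a bar of 1 SE for all 6 libraries. The median of the 10 genes is 0.51 with all libraries, 0.17 without TNF + LED replicate 6 and -0.08 without both, while CHAC1 stays below 0 in each.

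Other genes of the pathway and of processes beside it were taken as 8 lists by function, with 123 of 125 genes tested. Those beside it were the ATF6 and XBP1 arm of the unfolded protein response and genes around mTORC1. By edgeR's test 7 were called higher and 2 lower, where 2.44% of all genes were called higher and 2.73% lower. The ATF6 and XBP1 arm and the mTORC1 list each held 2 of the 7 higher calls. Of these calls, that of SESN3 held when each of the 6 libraries was left out in turn, and the others did not.

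Of 21 genes for eIF2 kinases, subunits of eIF2 and its exchange factor eIF2B, and phosphatase partners, 0 were called by edgeR, beside 5.17% of all genes. An unadjusted p below 0.05 was reached by 1 of the 21, beside 22.7% of all genes. DESeq2 called 1 higher, beside 6.34% of all genes, and limma-voom called 0, beside 4.78%. The median log2 fold change was 0.071. The kinases, named for their role, had log2 fold changes of 0.38 for EIF2AK3 (PERK, adjusted p = 0.388), -0.27 for EIF2AK4 (GCN2, adjusted p = 0.483), 0.15 for EIF2AK2 (PKR, adjusted p = 0.693) and -0.16 for EIF2AK1 (HRI, adjusted p = 0.598). DNAJC3, an endoplasmic reticulum chaperone that inhibits PERK and PKR, came nearest to the threshold. It was at 203, 344 and 194 CPM in TNF + LED, against 139, 79.7 and 131 CPM in TNF cells, a log2 fold change of 1.08 ± 0.28 (adjusted p = 0.0600). Its groups did not overlap, as for 16.2% of all genes on the higher side. EIF2B1, an eIF2B subunit, had 0.27 ± 0.15 (adjusted p = 0.333).

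Among 12 basic leucine zipper partners and other regulators, 0 were called by edgeR, beside 5.17% of all genes. An unadjusted p below 0.05 was reached by 5 of the 12, beside 22.7% of all genes. DESeq2 called 1 higher and 1 lower, beside 6.34% and 6.37% of all genes, and limma-voom called 0, beside 4.78%. Their median log2 fold change was 0.40. CEBPD, a relative of CEBPB, was at 34.3, 28.6 and 38.9 CPM in TNF + LED, against 20.3, 14.8 and 25.1 CPM in TNF libraries (log2 fold change 0.76 ± 0.23, adjusted p = 0.0847). Its groups did not overlap, as for 16.2% of all genes on the higher side, and it was not split the way CEBPB was. BATF3 had a log2 fold change of -1.19 ± 0.36 (adjusted p = 0.0902). ATF3, a stress-induced factor downstream of ATF4 that was named after its values were seen, was at 5.98, 43.4 and 2.67 CPM in TNF + LED, against 3.47, 4.58 and 4.91 CPM in TNF. Replicate 6 alone was high, and the log2 fold change was 2.01 ± 0.87 with all libraries (adjusted p = 0.219) and 0.0028 without replicate 6.

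Amino acid transporters held 2 genes called higher and 0 lower of 11 tested, beside 2.44% and 2.73% of all genes. SLC7A3 was at 0 in every library, and the median log2 fold change of the list was 0.13. SLC38A1, a carrier of glutamine and other neutral amino acids, rose to 83.8, 127 and 81.5 CPM in TNF + LED, against 41.8, 19.3 and 30.6 CPM in TNF cells (1.67 ± 0.30, adjusted p = 0.0216). SLC7A5, the catalytic chain of the large neutral amino acid exchanger, rose to 259, 383 and 222 CPM in TNF + LED, against 154, 141 and 137 CPM in TNF cells (0.999 ± 0.22, adjusted p = 0.0364). For both genes all TNF + LED libraries exceeded all TNF libraries, as for 16.2% of all genes, and replicate 6 was the highest. The SLC38A1 call was lost without TNF + LED replicate 4 or 6 or TNF replicate 14 (adjusted p up to 0.105), and that of SLC7A5 when any library other than TNF + LED replicate 10 was left out (up to 0.126). SLC3A2, the partner chain of SLC7A5 and named after its values were seen, was at 184, 364 and 137 CPM in TNF + LED, against 121, 124 and 96.8 CPM in TNF cells, and missed the threshold (1.003, adjusted p = 0.108).

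Of 16 further enzymes of serine, glycine, one-carbon and proline metabolism, 1 was called lower and 0 higher, beside 2.73% and 2.44% of all genes. Their median log2 fold change was 0.10. SHMT1, the cytosolic serine hydroxymethyltransferase, fell to 2.94, 3.32 and 3.56 CPM in TNF + LED, against 7.38, 15.9 and 7.002 CPM in TNF cells (-1.62 ± 0.33, adjusted p = 0.0313). The groups did not overlap, as for 16.2% of all genes on the lower side. The call was lost when any 1 TNF + LED library was left out (adjusted p up to 0.133). MTHFD1, a cytosolic folate enzyme named after its values were seen, was near the threshold at 76.5, 73.4 and 75.8 CPM in TNF + LED, against 114, 132 and 105 CPM in TNF cells (-0.64, adjusted p = 0.0548). The 20 cytosolic aminoacyl-tRNA synthetases, which charge tRNAs and include known targets of ATF4, had 0 calls by edgeR, DESeq2 and limma-voom. Of all genes, edgeR called 5.17%, DESeq2 6.34% higher and 6.37% lower, and limma-voom 4.78%. At an unadjusted p below 0.05 there were 0 of the 20, beside 22.7% of all genes. Their median was 0.16, and YARS had 0.39 (adjusted p = 0.325) and FARSA -0.28 (adjusted p = 0.326). Of the 20, 14 were highest in TNF + LED replicate 6, where 25.2% of all genes were.

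**Figure D4:**
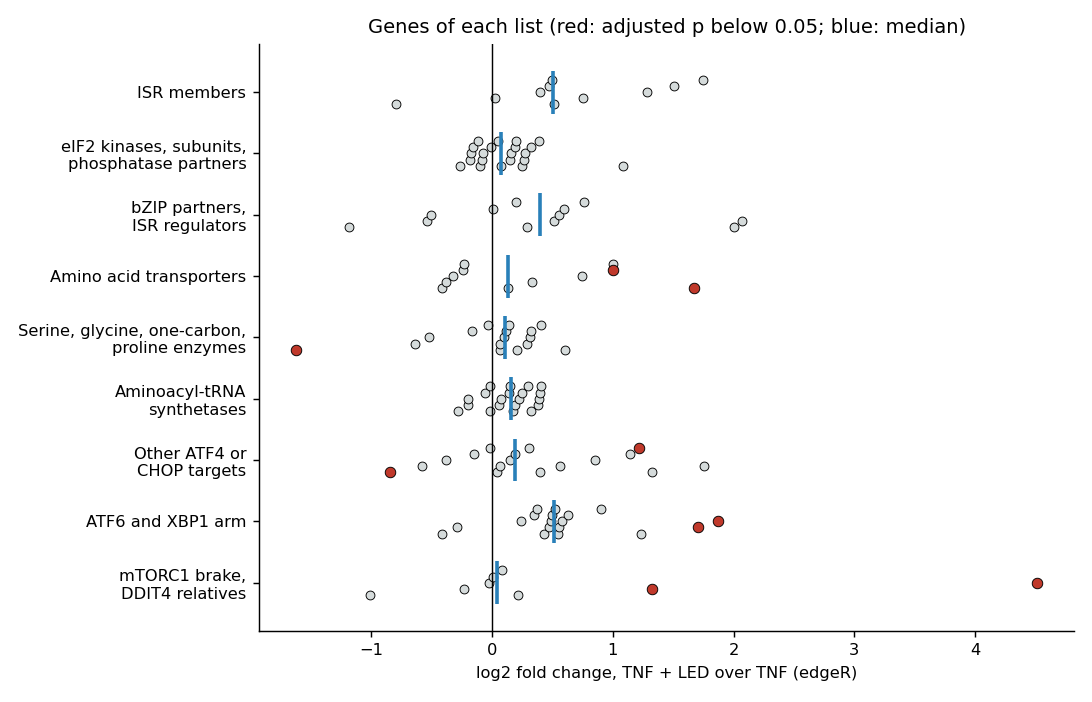
Log2 fold change (TNF + LED over TNF) of every tested gene of the 10-gene set and the 8 other lists, with a line at each list's median and called genes of either direction in red. The medians run from 0.043 to 0.51, against 0.0086 for all 13794 genes, and calls are few in each list.

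Further known targets of ATF4 or CHOP gave 1 higher and 1 lower call among 17 tested, beside 2.44% and 2.73% of all genes. FGF21 was at 0 in every library, and the median of the list was 0.19. VEGFA, the angiogenic growth factor, rose to 37.5, 37.2 and 35.4 CPM in TNF + LED, against 14.3, 10.4 and 22.7 CPM in TNF cells (1.22 ± 0.27, adjusted p = 0.0364). STC2, a secreted glycoprotein, fell to 173, 130 and 185 CPM in TNF + LED, against 332, 267 and 278 CPM in TNF cells (-0.85 ± 0.19, adjusted p = 0.0403). Neither overlapped between groups, where 16.2% of all genes did not overlap on the higher side and 16.2% on the lower. TNF + LED replicate 6 was not the highest library for either, but it was the lowest of the 6 for STC2. The VEGFA call was lost when any library other than TNF replicate 14 was left out (adjusted p up to 0.143), and that of STC2 when any other than TNF replicate 8 was (up to 0.129). Other targets were high in replicate 6: 8 of the 17 were there at least 2-fold above the mean of replicates 4 and 10, beside 4.18% of all genes. HERPUD1, of endoplasmic reticulum protein disposal and named after its values were seen, was at 117, 550 and 109 CPM in TNF + LED, against 85.6, 69.8 and 74.1 CPM in TNF cells (1.76, adjusted p = 0.102; 0.56 without replicate 6). SESN2 and GDF15 were named in the same way. SESN2, a stress-induced sestrin, had 29.3, 109 and 28.1 CPM in TNF + LED, against 39.4, 24.2 and 28.8 CPM in TNF (0.85, adjusted p = 0.339; -0.10 without replicate 6). GDF15, a secreted stress signal, had 78.7, 219 and 72.6 CPM in TNF + LED, against 73.7, 28.3 and 46.2 CPM in TNF (1.32, adjusted p = 0.131; 0.61 without replicate 6). In all 3 genes replicate 6 was the highest library and replicates 4 and 10 were close to each other.

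Of 8 relatives of DDIT4 and other genes around mTORC1, 2 were called higher and 0 lower, beside 2.44% and 2.73% of all genes. Their median was 0.043. SESN3, a sestrin that dampens mTORC1, was near silent in TNF cells. It rose to 22.8, 6.59 and 16.5 CPM in TNF + LED, against 0.717, 0.502 and 0.784 CPM in TNF cells, a fitted 22.9-fold difference (log2 fold change 4.51 ± 0.46, adjusted p = 0.00278). Replicate 6 was the lowest of the TNF + LED libraries for SESN3, opposite to its place for SESN2. The call held when each library was left out in turn (adjusted p up to 0.0212). SESN1 rose to 13.1, 19.1 and 9.26 CPM in TNF + LED, against 7.31, 3.83 and 5.43 CPM in TNF cells (1.32 ± 0.32, adjusted p = 0.0470), and its call was lost when any library other than TNF replicate 2 was left out (adjusted p up to 0.179).

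The ATF6 and XBP1 arm of the unfolded protein response, which raises chaperones of the endoplasmic reticulum, was the list most like the 10 genes in its median, 0.51 for each. It differed in how its libraries lay: 13 of its 18 genes had groups that did not overlap on the higher side, against 0 of the 10 integrated stress response genes, where 16.2% of all genes did. On the lower side 2 of the 18 did not overlap, beside 1 of the 10 and 16.2% of all genes. These 2, named after their values were seen, were ATF6 itself (-0.29, adjusted p = 0.306 in edgeR) and EDEM1 (-0.41, adjusted p = 0.199). The difference between the lists was not tested. By edgeR 2 of the 18 were called higher and 0 lower, beside 2.44% and 2.73% of all genes. DESeq2 called 8 higher and 0 lower, beside 6.34% and 6.37% of all genes. Limma-voom called 2 higher and 0 lower, beside 4.78% of all genes in either direction. An unadjusted p below 0.05 in edgeR was reached by 12 of the 18, beside 22.7% of all genes. Without both libraries that stood apart, edgeR called 6 higher and 1 lower. Of all 13860 genes tested in that setting, 763 were called higher and 906 (6.54%) lower. HSPA5, the chaperone BiP, rose to 3267, 7472 and 2806 CPM in TNF + LED, against 1417, 1182 and 1567 CPM in TNF cells (1.701 ± 0.35, adjusted p = 0.0323). DNAJB9, its co-chaperone, rose to 156, 327 and 148 CPM in TNF + LED, against 67.5, 40.9 and 64.1 CPM in TNF cells (1.87 ± 0.33, adjusted p = 0.0215). Both were highest in replicate 6, as were 16 of the 18 and 25.2% of all genes. Yet in both genes replicates 4 and 10 also exceeded every TNF library. Without replicate 6, when 0.574% of all genes were called, both missed the threshold, HSPA5 at 1.13 (adjusted p = 0.0525) and DNAJB9 at 1.404 (adjusted p = 0.0646). The HSPA5 call was also lost without TNF + LED replicate 4, TNF replicate 8 or TNF replicate 14 (adjusted p up to 0.0883), and that of DNAJB9 without TNF replicate 8 or 14 (up to 0.0655). HSPA1A, the inducible cytosolic chaperone, was at 6009.8, 10652 and 3645 CPM in TNF + LED, against 188, 97.7 and 81.1 CPM in TNF cells (5.79 ± 0.51, adjusted p = 0.00159), and counts may be split between it and its near-identical copy HSPA1B.

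**Figure D5:**
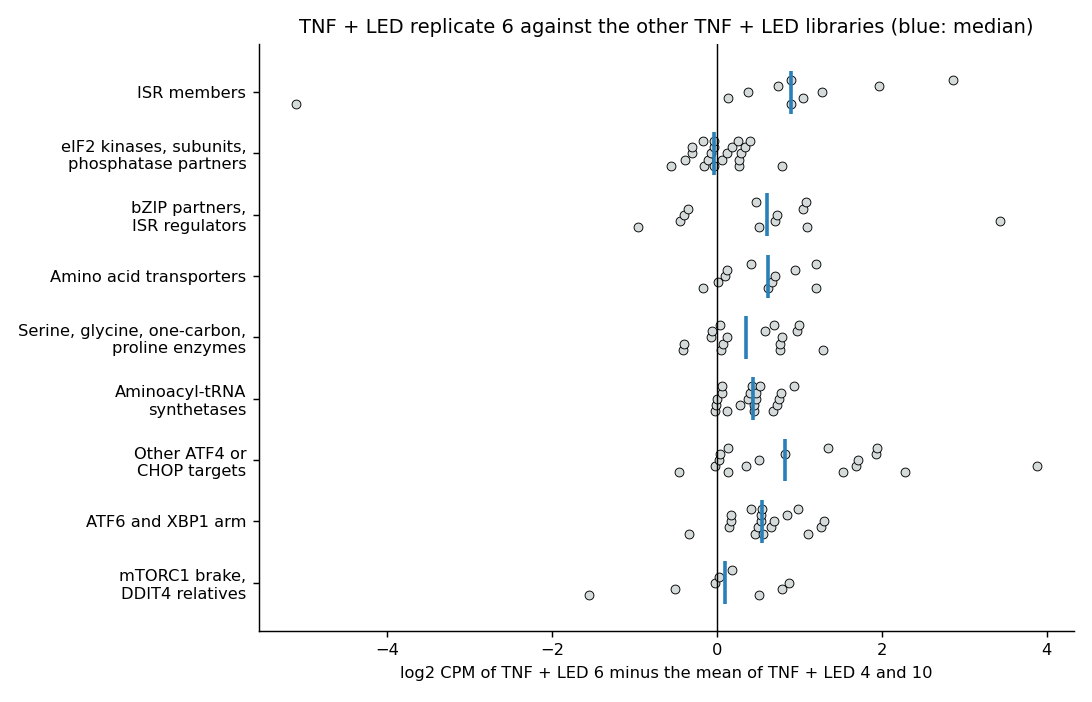
Difference on the log2 scale between TNF + LED replicate 6 and the mean of TNF + LED replicates 4 and 10 for each tested gene of the 10-gene set and the 8 other lists, with a line at each list's median. The median is 0.90 for the 10 genes, 0.83 for the other targets of ATF4 or CHOP and 0.54 for the ATF6 and XBP1 arm, against -0.034 for the eIF2 kinase list and -0.0042 for all genes.

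The genes with the profile most like that of ATF4 were found by the root mean square difference of centred log2 levels over the 6 libraries among 11897 genes of at least 1 CPM. They were BEST1 (0.105), CDC6, EXOSC1, CHKB and TUBE1 (0.132). Each was highest in TNF + LED replicate 6, as ATF4 was, which follows from choosing them by likeness to ATF4. For CHAC1, the gene of the 10 with the lowest adjusted p, they were AMN1 (0.148), NT5DC1, CACNA1C, ZDHHC20 and MAP7 (0.183). Of these, ZDHHC20 was called lower in TNF + LED, with a log2 fold change of -0.87 (adjusted p = 0.0288). None of the 9 other ATF4-set genes was among the 5 nearest to ATF4. With 5 places among 11897 genes, this does not show whether those genes vary with ATF4. The measure also counts the size of a swing, so a gene with the same order of libraries but wider differences lies far away.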

How the data were processed

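RNA sequencing of rRNA-depleted, randomly primed total RNA was deposited for 6 MH7A libraries. The deposited values are expected counts (estimated counts per gene, as whole numbers), and about 4 units stand for 1 fragment: 67.2% of values from 1 to 7 equalled 4 or 5. Tools named in the submitters' processing notes, with no role given, are StringTie, HISAT2, bcl2fastq 2.0, limma and DESeq2. The build named there is mm10, of the mouse, although samples and symbols are human. No source used here gives the human build or the strandedness of counting. The table held 19475 symbols, of which 3523 were 0 in every library and 12 had become dates. Totals give 21500063 to 27018572 fragments per library if 4 units are 1 fragment, and a count of 0 then allows up to 3 fragments (0.108 to 0.138 CPM), which covers counting error only.

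Counts were used as deposited, needing no rounding, in edgeR 4.0.16 (R 4.3.3): filterByExpr, TMM scaling, robust quasi-likelihood test, two-sided, no covariate, Benjamini-Hochberg adjustment over 13794 genes, threshold 0.05. The SE is the log2 fold change divided by the square root of F. CPM uses TMM-scaled totals. DESeq2 1.42.0, limma-voom (limma 3.58.1), other filters and scalings, and each library left out were alternatives. The procedure was tested on simulated counts. Exon lengths and overlaps came from GENCODE release 29 (19208 symbols matched) and promoter windows from RefSeq (GRCh38.p14), all 10 genes matching.

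The members and lists were chosen with earlier results of these data known. Named were the 10 genes, up to 4 called genes with the lowest p of each other list (2 where none was called), HSPA1A and HSPA5, and the 5 genes most like ATF4 and like the member with the lowest p. Genes named otherwise are said to be so.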

Additional observations from a re-analysis of the deposited data

How the results depend on the processing

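Over 16 alternative settings, 575 values for 36 single genes gave 510 on the same side of the threshold and of 0, 38 that lost a call, 14 that gained one and 13 that changed sign. The sign changes were those of ATF4 with library totals only (-0.037), with limma-voom (-0.065), without TNF + LED replicate 6 (-0.42), without TNF replicate 8 (-0.019), without TNF replicate 14 (-0.0052) and without both libraries that stood apart (-0.45). TRIB3 (-0.35) and SESN2 (-0.10) changed sign without TNF + LED replicate 6. Without both libraries so did TRIB3 (-0.49), ASNS (-0.050), PSAT1 (-0.13), PHGDH (-0.11) and SESN2 (-0.25). With 1 library left out at a time, log2 fold changes ran from -0.42 to 0.23 for ATF4, -0.35 to 1.71 for TRIB3, 0.20 to 1.12 for ASNS, 0.15 to 0.92 for PSAT1, 0.03 to 0.59 for PHGDH and -0.10 to 1.17 for SESN2. The cause was not tested.

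Among the 10 genes, 0 were called higher and 0 lower with all libraries. DESeq2 called 1 lower, removal of both libraries gave 2 lower (ATF4 and CHAC1), and an adjusted p below 0.1 gave 1 higher and 1 lower. Leaving out 1 library at a time gave 0 higher and 0 to 1 lower, the 1 being CHAC1 without TNF replicate 8. The other 8 lists gave 7 higher and 2 lower calls, against 18 and 4 with DESeq2, 14 and 8 without both libraries, 1 lower with library totals only, and 1 to 5 higher and 0 to 2 lower with 1 library left out. Over all genes, 336 were called higher and 377 lower. The counts were 874 and 879 with DESeq2, 763 and 906 without both libraries, 695 and 776 at an adjusted p below 0.1, 53 and 17 at one below 0.01, and 59 to 314 higher and 21 to 423 lower with 1 library left out. The SE of the log2 fold changes of the 10 genes, from 0.21 for CHAC1 to 1.55 for CEBPB, limits the size of difference that could be called. No paired analysis was possible because the groups share no replicate number.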
